A study of Rattus norvegicus with 2 samples.

Results

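The red (Cy5) channels of 2 Agilent rat expression arrays, which held total RNA of neural precursor cultures, were compared with each other. The red channel of the first array is labelled as cells that carried an empty vector and were taken off the growth factor bFGF. The red channel of the second is labelled as cells that carried rat Bcl-2 and stayed with bFGF. Both sides of the comparison have the same dye, so a bias of the dye for a probe enters both. These are 2 of the 4 channels of the series. Genes were filtered by signal, under a rule chosen with earlier results of these data known. A gene was kept where at least 1 probe was well above background in both red channels. This left 9795 of the 15443 genes named on the arrays.

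The cells were primary neural stem cells from the cortex of Sprague-Dawley rat embryos at day 14, grown in N2 medium with 10 ng/mL bFGF. They were transiently transfected by nucleofection with 4 µg of a retroviral plasmid that carries EGFP alone (the vector), or rat Bcl-2 together with EGFP. The vector cells of the first red channel then spent 2 days in NB medium without bFGF, and the Bcl-2 cells of the second stayed in N2 medium with bFGF. Transfection was transient and no selection of transfected cells is given in the sources used here, so either RNA may hold untransfected cells. Plasmid, bFGF and medium all differ between the channels, and their parts in any difference cannot be told apart.

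Fibroblast growth factor 2 (bFGF) signals through receptor tyrosine kinases to the ERK pathway and keeps cortical precursors dividing. Its withdrawal lets them leave the cycle and form neurons and glia. Bcl-2 sits on the outer mitochondrial membrane and blocks apoptosis by binding the proteins that would open it.

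The difference of a gene is given below as log2 of the Bcl-2 signal minus log2 of the withdrawal signal, so a value above 0 is higher in the channel labelled Bcl-2 with bFGF. Signals are net red intensities after quantile normalization over both red channels. There was 1 array per group on 1 slide, so no difference has a replicate check, a test or a p. A gene was counted as higher or lower where it differed at least 2-fold (1 on the log2 scale) with every kept probe on 1 side of 0. The spread over repeated spots of a probe, known for 1120 probes with 5 or more spots, had a median SD of 0.050 and a 90th percentile of 0.115. It covers printing and scanning, and not separate cultures. The number of arrays limits the precision.

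The transfected gene did not mark its channel. The Bcl2 probe read 721 in the withdrawal red channel and 670 in the channel labelled Bcl-2, a difference of -0.11. The arrays hold 1 Bcl2 probe at 1 spot. No source used here says if the plasmid carries the bases that it reads, so the label remains unchecked by it. The log2 ratios of red over green of the arrays correlated at r = -0.83 over 9440 genes, although both green channels are labelled as 1 control RNA. The labels state the dye of each RNA, and the labelled direction is kept. Whether the labels are right was not tested. Red labels exchanged between the arrays would turn the sign of every red difference below. The 104 higher genes would then be lower and the 348 lower genes higher. Red and green labels exchanged within an array would keep these signs and change which RNAs are compared.

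Both red channels had similar depth. Well above background were 72.0% of gene spots in the withdrawal channel and 66.1% in the Bcl-2 channel, and the median net signal before normalization was 284.5 and 266. The lower quartile of net signal was 19 and 42.5, so the channels differed most among dim spots. The labelled cell type showed in the markers: the intermediate filament gene Nes read 36039 in the withdrawal channel and 30099 in the Bcl-2 channel, and the stem cell factor gene Sox2 read 23042 and 22702. The differences were -0.26 and -0.02. Gfap, the astrocyte filament gene, was not well above background in either.

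Of the 9795 genes, 104 were counted as higher in the Bcl-2 channel and 348 as lower. That is 1.06% higher and 3.55% lower, and 23.0% of the counted genes were higher. With the channels scaled to 1 median in place of quantiles, 36.1% of the counted genes were higher. The SD of the difference over all genes was 0.47 and its median 0.05. Past 2 on the log2 scale were 6 genes higher and 43 lower. Most counted genes rest on 1 probe, 89 of the 104 higher and 307 of the 348 lower. With normexp background correction, which adds 50 to every signal and so draws dim genes towards 0, 44 genes were higher and 190 lower, all of them among the genes counted here.

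Counted genes were spread unevenly over signal. Ordered by signal into 5 bins of 1959 genes, the dimmest bin had a median signal of 103.7. There 39 were higher and 79 lower. The next bin, with a median signal of 336.4, had 16 higher and 119 lower. In the brightest bin 13 were higher and 25 lower. Higher genes were thus most frequent in the dimmest bin and lower genes in the next. The median withdrawal signal of the higher genes was 334 and the median Bcl-2 signal of the lower genes was 253.5, each being the dimmer side of its genes.

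**Figure D1:**
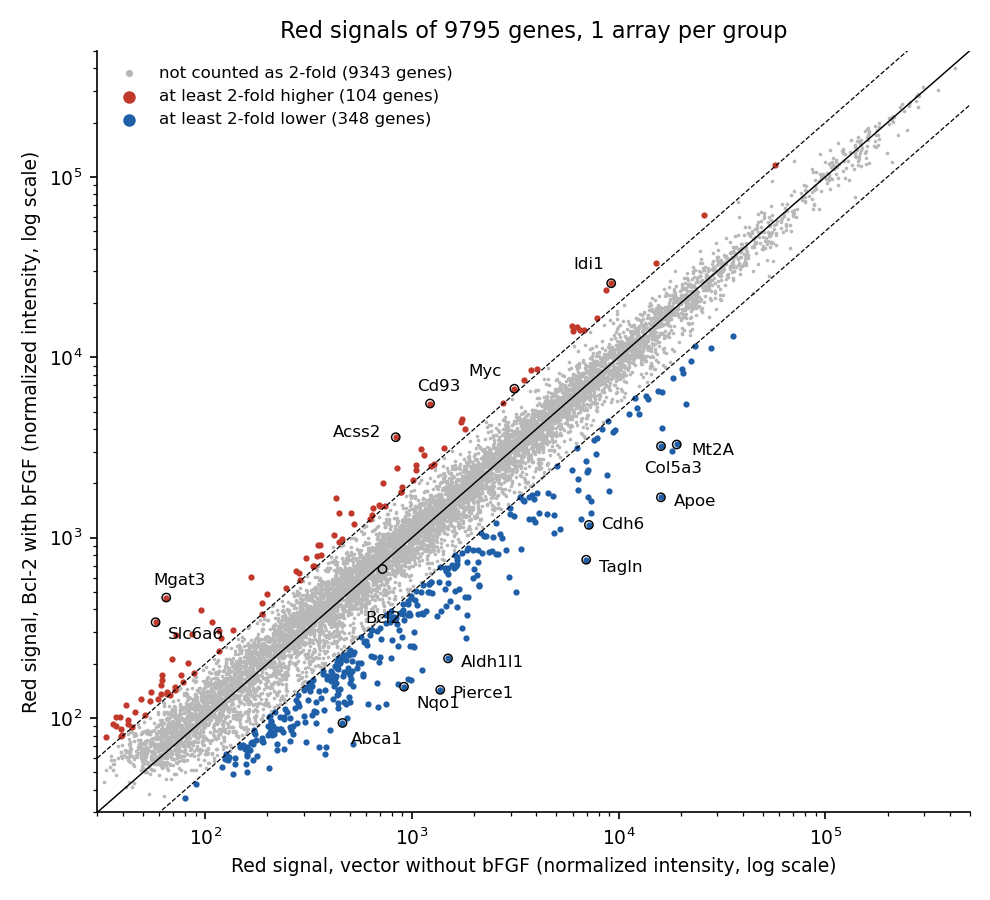
Red signal of each of 9795 genes in the channel labelled vector without bFGF (x axis) and in that labelled Bcl-2 with bFGF (y axis), as normalized intensity on log scales, with 1 array per group. The solid line marks equal signals and the dashed lines 2-fold; 104 genes in red were counted as higher and 348 in blue as lower, with Apoe at 16017 and 1674 far below the line and Bcl2 near it.

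Cholesterol synthesis genes were higher in the Bcl-2 red channel as a group. All 20 of the listed sterol synthesis genes were measured and all lay above 0, with a median of 1.09 against 0.05 for all genes. Of them 13 were at least 2-fold higher, 65.0% where 1.06% of all genes were, and 0 were lower. The 13 kept that side of the limit with normexp. Summed over the list, the red signal was 257000 in the withdrawal channel and 512400 in the Bcl-2 channel.

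The pathway starts with the condensing enzymes. Acat2, which makes acetoacetyl-CoA, read 26006 in the withdrawal channel and 61102 in the Bcl-2 channel, a difference of 1.23. Hmgcs1, the next enzyme, read 70306 and 123030, and at 0.81 it stayed under 2-fold.

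Some of the isoprenoid steps that follow were at least 2-fold higher. Idi1, the isopentenyl diphosphate isomerase, read 9209 and 25723, a difference of 1.48. Mvd, which decarboxylates mevalonate diphosphate, read 8732 and 23609, a difference of 1.44. Fdps, the farnesyl diphosphate synthase, read 15206 and 33424, a difference of 1.14.

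The branch point did not follow to the same extent. Fdft1, squalene synthase, read 11850 and 13749, a difference of 0.21 and the smallest of the list. Sqle, squalene epoxidase, stood at 0.69. Earlier in the route, Mvk and Pmvk, the kinases of the mevalonate steps, stood at 0.64 and 0.54, also under 2-fold.

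The enzymes that turn lanosterol into cholesterol were nearly all counted. Lss, which forms lanosterol, read 5979 and 14925, a difference of 1.32. Cyp51, the lanosterol demethylase, read 7871 and 16608, a difference of 1.08 with an SD of 0.03 over 10 spots. Hsd17b7, a sterol ketoreductase, read 1109 and 3105 and at 1.49 was the highest of the list. Sc5d, Tm7sf2 and Nsdhl stood at 1.38, 1.36 and 1.33, and Msmo1 and Ebp at 1.03 and 1.05. Dhcr7, a reductase at the end of the route, stood at 0.92, under 2-fold.

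Genes of sterol uptake and its control split by role. Of 14 measured members of 16, 4 were at least 2-fold higher, where 1.06% of all genes were, and 0 lower. With normexp 2 of the 4 remained counted. The median was 0.22. Insig1, which holds the sterol sensor complex in the endoplasmic reticulum, read 6039 in the withdrawal channel and 13991 in the Bcl-2 channel, a difference of 1.21. Stard4, a sterol carrier, read 1432 and 3124, a difference of 1.13, with its 2 probes at 1.03 and 1.22.

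The regulators themselves differed less. Srebf2, the transcription factor of the sterol genes, stood at 0.40 and its escort Scap at -0.02. The oxysterol receptor gene Nr1h3 read 190 and 96 and stood at -0.98, and Mylip, a ubiquitin ligase gene that oxysterol receptors induce, at -0.45. Both lay below 0 where the synthesis genes lay above it.

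Most fatty acid genes lay above 0 too, with a smaller median. Of 16 measured members of 20, 14 lay above 0, 4 were at least 2-fold higher (1.06% of all genes were) and 0 lower, with a median of 0.58. Acss2, which makes acetyl-CoA from acetate, read 835 and 3605, a difference of 2.11. The stearoyl-CoA desaturase gene Scd read 6274 and 14654, a difference of 1.22. Acsl4, which activates long fatty acids, read 651 and 1452, a difference of 1.16 with an SD of 0.06 over 10 spots. The elongase gene Elovl6, at 1.01, stood at 0.96 with normexp. Acly at 0.94, Acaca at 0.69 and Fasn at 0.47, the core of the synthesis route, stayed under 2-fold.

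Genes for lipid carriers and efflux lay on the other side. Of 13 measured members of 18, all were below 0 and 6 were at least 2-fold lower (3.55% of all genes were), with a median of -0.70. Apoe, the main lipid carrier of the brain, read 16017 in the withdrawal channel and 1674 in the Bcl-2 channel, and at -3.26 it was the lowest of all genes. Apoc1, a neighbour of Apoe among the apolipoproteins, read 378 and 62.8, a difference of -2.59 with an SD of 0.19 over 7 spots. Abca1, the cholesterol efflux pump, read 461 and 94, a difference of -2.29.

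Smaller differences filled the rest of that list. Abcg1, a second sterol exporter, stood at -1.53, the clusterin gene Clu at -1.54 and the apolipoprotein D gene Apod at -1.20. With normexp these became -0.88, -0.93 and -0.98, so 3 of the 6 remained counted. Fabp5, a fatty acid carrier, read 142930 and 141440 and hardly differed, at -0.02, and Lrp1, a receptor of Apoe, stood at -0.05.

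**Figure D2:**
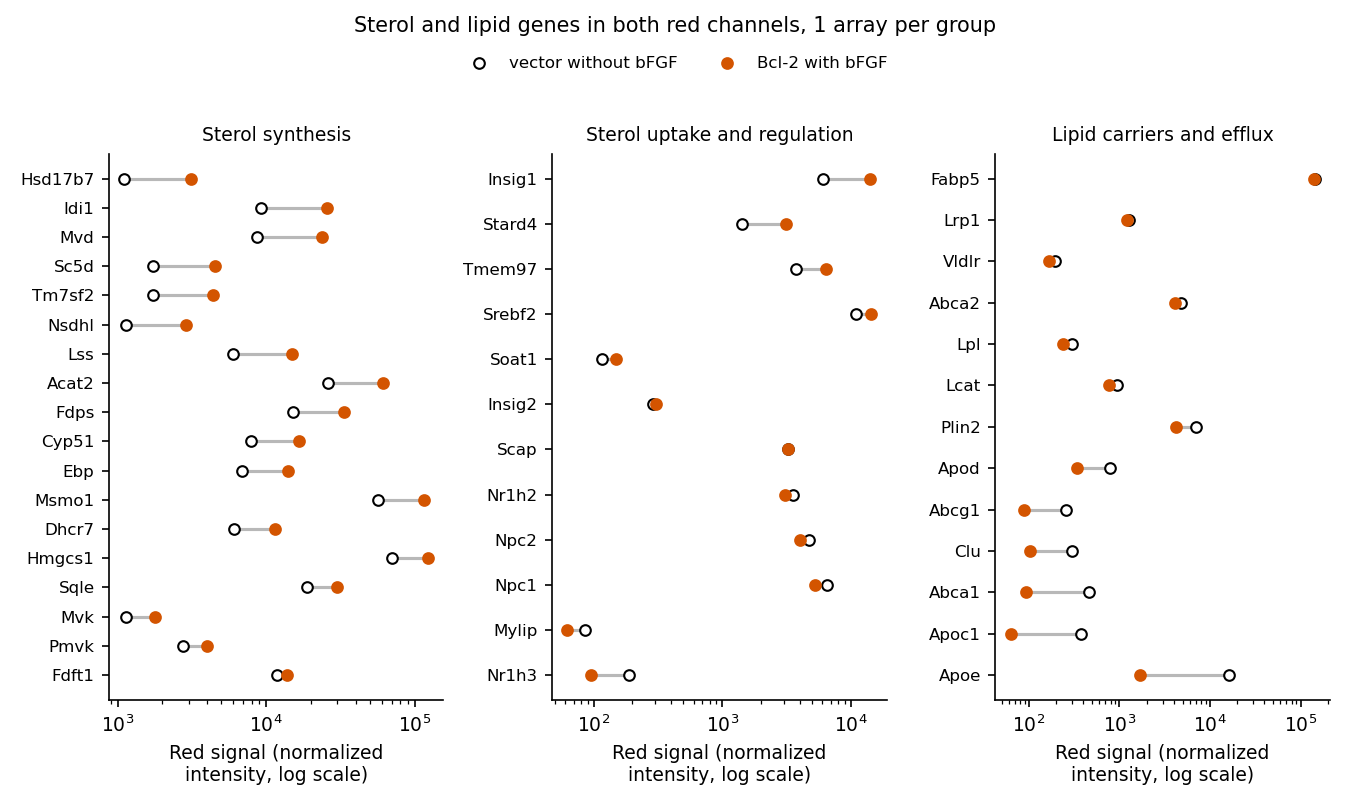
Red signal (normalized intensity, log scale) of genes of the sterol synthesis, sterol uptake and lipid carrier lists, with open points for vector without bFGF and filled points for Bcl-2 with bFGF, 1 array each. The filled point lies to the right for each sterol synthesis gene shown and to the left for each of the 13 lipid carrier genes.

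Promoters of 3 of the highest sterol synthesis genes are shown because the group lay on 1 side of 0, with the CCAAT box, the element bound by NF-Y, in capitals. The sequences are from RefSeq on the GRCr8 build, written on the strand of the gene from 250 bases before to 50 after the start.
Hsd17b7, chr13:84722705-84723004, minus strand: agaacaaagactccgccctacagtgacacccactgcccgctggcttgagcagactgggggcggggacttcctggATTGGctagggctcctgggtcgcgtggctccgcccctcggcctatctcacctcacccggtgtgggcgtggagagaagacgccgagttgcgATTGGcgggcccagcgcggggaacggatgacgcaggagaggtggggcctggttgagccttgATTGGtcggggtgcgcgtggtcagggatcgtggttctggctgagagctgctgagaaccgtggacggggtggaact
Idi1, chr17:66547475-66547774, minus strand: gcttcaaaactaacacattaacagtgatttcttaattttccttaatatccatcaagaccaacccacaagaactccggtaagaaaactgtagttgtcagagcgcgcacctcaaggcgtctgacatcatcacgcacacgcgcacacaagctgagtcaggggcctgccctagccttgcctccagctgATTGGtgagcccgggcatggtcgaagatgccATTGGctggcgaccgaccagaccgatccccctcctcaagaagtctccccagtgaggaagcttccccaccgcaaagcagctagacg
Mvd, chr19:67414925-67415224, minus strand: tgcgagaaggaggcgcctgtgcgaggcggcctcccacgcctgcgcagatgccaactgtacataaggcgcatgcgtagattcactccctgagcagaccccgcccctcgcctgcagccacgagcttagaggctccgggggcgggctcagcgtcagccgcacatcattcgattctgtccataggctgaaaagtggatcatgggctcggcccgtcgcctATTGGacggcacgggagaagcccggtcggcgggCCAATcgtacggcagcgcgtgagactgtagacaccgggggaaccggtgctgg

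The letters CCAAT were searched on both strands, so that ATTGG counts as well. The box occurred at least 1 time in 12 of the 15 sterol synthesis promoters with an entry (80.0%) and in 37.7% of all 27457 promoters of the same length. At least 2 boxes occurred in 10 of the 15 (66.7%) and in 11.45% of all promoters. Among genes measured in both red channels the shares were 38.3% for at least 1 box and 14.3% for at least 2. The core of the sterol regulatory element, searched as TCACNCCA on both strands, occurred in 1 of the 15 (6.67%) and in 3.91% of all. A match is a run of letters and not a measured site, and these arrays hold no binding data.

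Genes of FGF and ERK signalling lay on both sides of 0. Of 22 measured members of 26 on the FGF and ERK list, 2 were counted as higher (1.06% of all genes were). As lower 2 were counted (3.55% of all genes were), and the median was 0.21. Myc, the growth transcription factor, read 3132 in the withdrawal channel and 6694 in the Bcl-2 channel, a difference of 1.096 with an SD of 0.05 over 10 spots. Phlda1, an early ERK target, read 359 and 911, a difference of 1.34. Fgfr3, a receptor of the family, read 827 and 348, a difference of -1.25, and Fosl1, an AP-1 subunit, read 450 and 204, a difference of -1.14. With normexp Fgfr3 stood at -0.98 and Fosl1 at -0.83.

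The feedback inhibitors gave mixed values. Spry4 stood at 0.86, Dusp5 at 0.65 and Spry2 at 0.51, all under 2-fold. Dusp6, the ERK phosphatase gene often read as a gauge of FGF signalling, read 36326 and 30252, a difference of -0.26 with an SD of 0.02 over 8 spots. The ETS factor genes Etv4 and Etv5 stood at 0.28 and 0.02, and Egr1 at 0.69.

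Genes of DNA replication lay above 0 with 1 exception, while those of mitosis centred on 0. On the replication list 35 of 40 were measured, 34 lay above 0, and the median was 0.36, with 2 at least 2-fold higher (1.06% of all genes were) and 0 lower. Orc1, the largest subunit of the origin recognition complex, read 693 and 1526, a difference of 1.14. Cdc6, which loads the helicase, read 890 and 1781, at the limit with 1.001, and stood at 0.92 with normexp. The helicase genes Mcm2, Mcm3, Mcm4, Mcm6 and Mcm7 stood between 0.32 and 0.72, and Cdt1 and Orc6 at 0.82 and 0.78. Pcna stood at 0.25 and Tk1, at -0.07, was the 1 member below 0.

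The 28 measured mitosis genes of 32 centred on 0, with a median of -0.01, 13 above 0 and 15 below. None was counted at 2-fold. Mki67, the proliferation antigen, read 13269 and 12930, a difference of -0.03, with all 3 probes between -0.04 and -0.03. Cdk1, the mitotic kinase, read 61992 and 58969, a difference of -0.07 with an SD of 0.02 over 10 spots. The list ran from Cdca3 at -0.29 to Bub1 at 0.50.

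Cyclins and inhibitors of G1 split too. Ccnd1, cyclin D1, read 9868 and 18138, and at 0.88 stayed under 2-fold. Its partner gene Cdk6 read 496 and 224, a difference of -1.15, and stood at -0.85 with normexp. It was the 1 counted member of 16 (3.55% of all genes were lower). The inhibitor gene Cdkn1a (p21) read 14876 and 8635, a difference of -0.78. Its 2 probes disagreed in size, at -1.38 and -0.19, 1 of them past 2-fold. Cdkn1b (p27) stood at 0.03 with an SD of 0.04 over 10 spots.

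Ribosome biogenesis genes lay above 0 with small differences. This held for all 32 measured members of 35, with a median of 0.44, and 1 was at least 2-fold higher (1.06% of all genes were). Wdr43, a processome factor, read 1240 and 2488, a difference of 1.005 with an SD of 0.07 over 10 spots, and at 0.94 with normexp it was under 2-fold. Heatr1, Gar1 and Polr1b, which serve rRNA synthesis and modification, stood at 0.94, 0.91 and 0.88. The nucleolar protein genes Ncl and Npm1 were nearer 0, at 0.21 and 0.22. The 42 measured genes of ribosomal proteins had a median of 0.08 with 0 counted, and ran from -0.14 for Rpl19 to 0.70 for Rpl15.

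Glycolysis and hypoxia genes had a median of 0.25 over 29 of 32, with 2 higher and 1 lower (1.06% and 3.55% of all genes were). Ankrd37, a hypoxia target, read 95.7 and 399, a difference of 2.06 with an SD of 0.12 over 10 spots, and 1.29 with normexp. Pfkl, the liver form of phosphofructokinase, stood at 1.21 and at 0.85 with normexp. Pdk1, which inhibits pyruvate dehydrogenase, read 435 and 205, a difference of -1.08, and stood at -0.78 with normexp. Ldha stood at 0.49 and Slc2a1, the glucose transporter gene, at 0.33. The 30 measured respiratory chain genes of 31 had a median of -0.09 with 25 below 0 and none counted.

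The genes with the largest positive differences came from several functions. Mgat3, which adds a bisecting sugar to N-glycans, read 64.8 and 466, a difference of 2.85 and 1.70 with normexp. Slc6a6, the taurine transporter gene, read 57.5 and 340, a difference of 2.56 and 1.41 with normexp. Cd93, a transmembrane lectin gene, read 1224 and 5541, a difference of 2.18.

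Dim withdrawal signals marked many of the highest genes. Extl1, a heparan sulfate enzyme gene, read 72 and 289, a difference of 2.00. Prdm1, a transcriptional repressor gene, read 86 and 291, a difference of 1.76. Cdc73, a subunit of the PAF1 complex, read 108 and 342, a difference of 1.67. These 3 stood at 1.12, 1.02 and 1.04 with normexp. A further pair fell under 2-fold with normexp, at 0.83 and 0.58. Cyp26b1, which breaks down retinoic acid, read 69.1 and 211, a difference of 1.61 with an SD of 0.23 over 10 spots. Zc3h12d, an RNA-binding protein gene, read 41.5 and 118, a difference of 1.51.

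Other high genes were brighter in the withdrawal channel. Slc35d3, of the nucleotide sugar carrier family, read 429 and 1666, a difference of 1.96. The transferrin receptor gene Tfrc, which takes up iron, read 847 and 2419, a difference of 1.51. Gal3st1, which makes sulfatide, read 442 and 1379, a difference of 1.64. Rln1, a relaxin gene, read 167 and 605, a difference of 1.86 with an SD of 0.09 over 10 spots.

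Among the genes lower in the Bcl-2 channel, astrocyte genes formed a block. Of 21 measured members of 25, 17 lay below 0 and 7 were at least 2-fold lower (33.3%, against 3.55% of all genes), with a median of -0.64. In RNA from a whole culture, fewer cells of a type and less RNA per cell cannot be told apart. Aldh1l1, a folate enzyme used as an astrocyte marker, read 1495 in the withdrawal channel and 214 in the Bcl-2 channel, a difference of -2.80. Ndrg2 read 16266 and 4063, a difference of -2.001. Glul, glutamine synthetase, read 3687 and 1682, a difference of -1.13. S100b read 1198 and 498, a difference of -1.27, but its 2 probes stood at -1.72 and -0.82, 1 of them under 2-fold.

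Not all glial genes shared this. The glutamate transporter gene Slc1a3 stood at -0.71 and the radial glia lipid carrier gene Fabp7 at -0.80, under 2-fold. The gap junction gene Gja1 stood at -0.22 with an SD of 0.03 over 10 spots. Aqp4, the water channel gene, read 55.3 and 63.8, near background in both. Gfap and Gjb6 were not well above background.

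Contractile genes had some of the largest negative differences. Tagln (SM22), an actin-binding protein of smooth muscle, read 6968 and 755, a difference of -3.21. Acta2, smooth muscle actin, read 1124 and 185, a difference of -2.61, and Myl9, a myosin light chain, read 8949 and 1816, a difference of -2.30. Of 24 measured members of 29, 5 were at least 2-fold lower (3.55% of all genes were) and 0 higher, with a median of -0.34. The remaining counted genes were the tropomyosin gene Tpm2 at -1.86 and Tagln3, a neuronal relative of Tagln, at -1.41, which was -0.78 with normexp. The cytoplasmic actins Actb and Actg1 stood at -0.27 and -0.17, and their regulator Srf at -0.14.

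Matrix genes held the most counted members of any list after the sterol genes. On the collagen and matrix list 28 of 41 were measured, 12 were at least 2-fold lower (3.55% of all genes were) and 0 higher, with a median of -0.73. Col5a3, a fibrillar collagen gene, read 16034 and 3216, a difference of -2.32. Col1a2 read 6361 and 1847, a difference of -1.78, and Col3a1 read 1256 and 497, a difference of -1.34. Timp2, which inhibits matrix metalloproteinases, read 35718 and 13188, a difference of -1.44, and Sparc, a matrix glycoprotein gene, read 27977 and 11211, a difference of -1.32. With normexp 8 of the 12 remained counted. Basement membrane collagen Col4a1 stood at 0.16, Vcan at 0.19 and Fn1 at -0.65.

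Cilium genes included the second lowest gene. Pierce1, a protein inside the ciliary microtubules, read 1371 and 144, a difference of -3.26. Foxj1, the master regulator of motile cilia, read 1012 and 251, a difference of -2.01, and its partner Rfx2 read 1839 and 734, a difference of -1.33. Of 30 listed genes 11 were measured, and 5 were at least 2-fold lower (3.55% of all genes were), with a median of -0.74. With normexp 3 of the 5 remained counted, while Enkur and Dnai2, at -1.85 and -1.06, stood at -0.98 and -0.50. Cfap52, a cilium protein gene, went the other way with 3654 and 4842, a difference of 0.41.

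**Figure D3:**
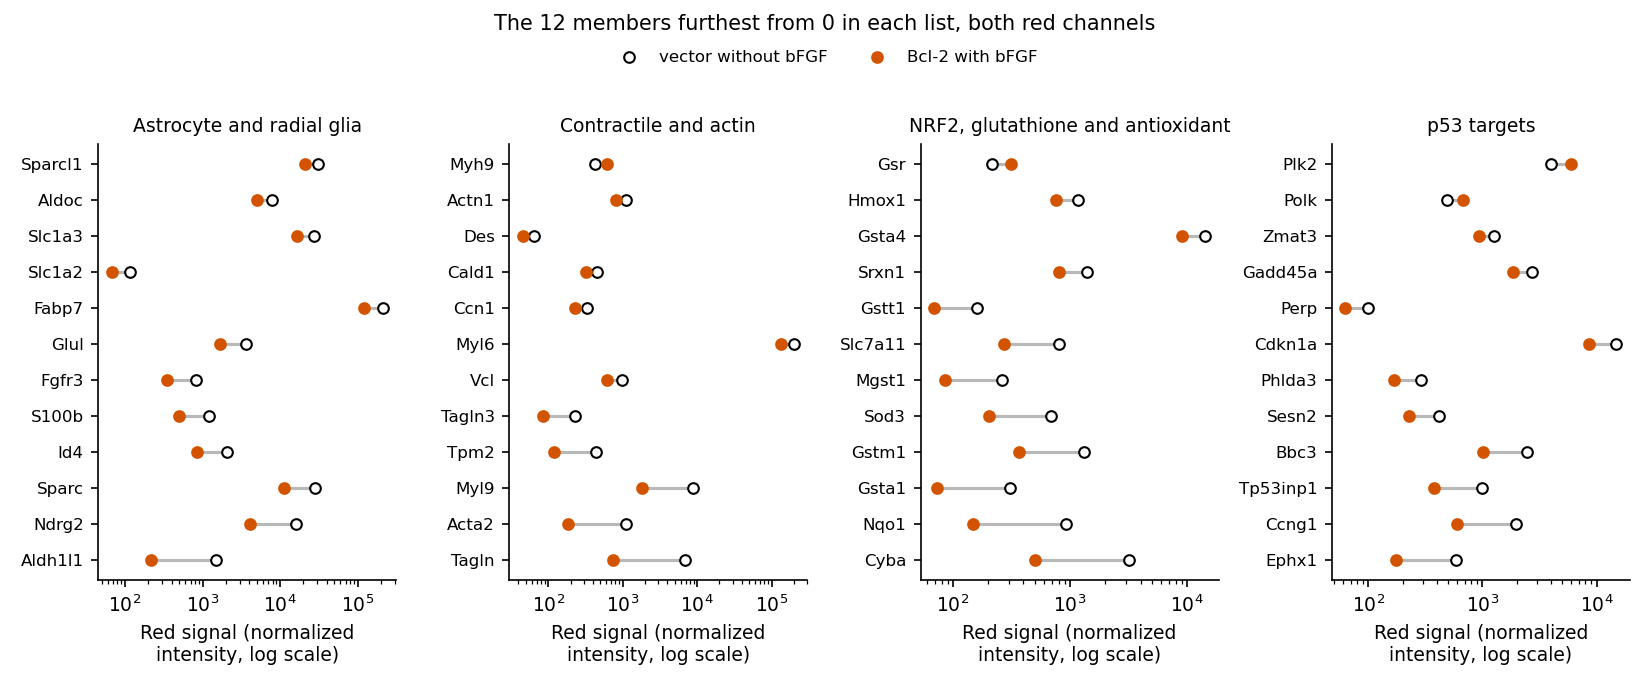
Red signal (normalized intensity, log scale) of the 12 members furthest from 0 on the astrocyte, contractile, antioxidant and p53 lists, with open points for vector without bFGF and filled points for Bcl-2 with bFGF, 1 array each. Filled points lie left of the open points for all 12 astrocyte genes shown; Gsr, Myh9, Plk2 and Polk lie the other way.

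The remaining genes among the 15 lowest had no list in common. Cdh6, a cadherin gene, read 7182 and 1177, a difference of -2.61. Pla2g7, which cleaves platelet-activating factor, read 1821 and 278, a difference of -2.71. Cyp7b1, an oxysterol hydroxylase gene, read 688 and 115, a difference of -2.59 with an SD of 0.05 over 10 spots and -1.81 with normexp. Dimmer on the Bcl-2 side were Prmt8, a brain arginine methyltransferase gene, with 519 and 72, and Cav1, the caveolin gene, with 753 and 119. Their differences of -2.85 and -2.66 became -1.77 and -1.89 with normexp.

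Detoxifying genes were lower in part. Of 28 measured members of 31 on the antioxidant list, 21 lay below 0, 8 were at least 2-fold lower (3.55% of all genes were) and 0 higher, with a median of -0.37. Nqo1, the quinone reductase and a standard NRF2 target, read 916 and 149, a difference of -2.62. Cyba, a subunit of NADPH oxidase that makes superoxide, read 3192 and 502, a difference of -2.67. Slc7a11, the cystine importer, read 801 and 271, a difference of -1.56, with its 2 probes at -1.89 and -1.23.

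Glutathione transferases shared that side. Gsta1 read 308 and 73.5, a difference of -2.07 with an SD of 0.19 over 10 spots, and Gstm1 read 1316 and 368, a difference of -1.84. Other members of the list went the other way: glutathione reductase (Gsr) stood at 0.56 with an SD of 0.06 over 10 spots and thioredoxin (Txn1) at 0.43 with an SD of 0.03 over 10 spots. Nfe2l2, which encodes NRF2, stood at -0.29, and Hmox1 at -0.64. With normexp 6 of the 8 remained counted.

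The metallothionein genes Mt1 and Mt2A differed strongly, while no measured zinc transporter gene was counted. Mt1 read 18066 in the withdrawal channel and 3033 in the Bcl-2 channel, a difference of -2.57. Mt2A read 19113 and 3285, a difference of -2.54, and its 2 probes disagreed in size, at -3.07 and -2.01. The brain form Mt3 read 157340 and 126420, a difference of -0.32. The zinc exporter gene Slc30a1, which shares their regulator Mtf1, stood at 0.05, and Mtf1 itself at 0.43 with an SD of 0.21 over 9 spots. The zinc transporter genes Slc39a8 and Slc30a4 stood further from 0, at -0.70 and 0.65. Of the 11 measured members of 12, Mt1 and Mt2A were the 2 counted, both as lower (3.55% of all genes were).

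The promoters of both genes are shown because they were the 2 counted members. Capitals mark matches to TGCNCNC on both strands, with overlapping matches joined. The pattern is looser than the core of the metal response element, so a match may not be that core.
Mt1, chr19:10832926-10833225, minus strand: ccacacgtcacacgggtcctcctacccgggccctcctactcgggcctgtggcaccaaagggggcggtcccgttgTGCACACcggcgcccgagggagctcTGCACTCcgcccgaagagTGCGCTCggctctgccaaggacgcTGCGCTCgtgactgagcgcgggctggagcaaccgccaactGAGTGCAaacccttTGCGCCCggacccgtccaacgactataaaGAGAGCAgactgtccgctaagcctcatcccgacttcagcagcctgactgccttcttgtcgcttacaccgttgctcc
Mt2A, chr19:10838659-10838958, minus strand: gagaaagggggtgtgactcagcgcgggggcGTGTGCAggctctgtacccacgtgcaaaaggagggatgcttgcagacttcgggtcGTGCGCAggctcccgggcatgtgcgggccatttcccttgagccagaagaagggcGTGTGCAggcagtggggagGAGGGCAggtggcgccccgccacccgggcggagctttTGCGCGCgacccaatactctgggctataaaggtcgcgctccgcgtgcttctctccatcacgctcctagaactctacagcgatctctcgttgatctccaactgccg

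Mt1 held 7 matches and Mt2A held 5. The sequences are again from RefSeq on GRCr8, on the strand of the gene. At least 1 match occurred in 50.1% of all promoters, and 5 or more in 0.652% of them. Among genes measured in both red channels the shares were 60.8% and 1.02%. On the metallothionein and zinc list 3 of 10 promoters with an entry held 5 or more. Mt3 was among them with 5 matches, and it differed by -0.32 and was not counted. These short letters occur often, and the counts describe sequence alone.

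Some target genes of p53 were lower in the Bcl-2 channel. Of 19 measured members of 26, 14 lay below 0 and 5 above. At least 2-fold lower were 4 (3.55% of all genes were) and 0 higher, with a median of -0.44, and all 4 stayed so with normexp. Ccng1, cyclin G1, read 1976 and 599, a difference of -1.72, and Ephx1, an epoxide hydrolase, read 582 and 175, a difference of -1.74. Tp53inp1 read 984 and 375, a difference of -1.39. Bbc3, which encodes PUMA, the pro-apoptotic partner that Bcl-2 binds, read 2455 and 1012, a difference of -1.28.

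The other measured targets on the list were not counted. Cdkn1a stood at -0.78, with its 2 probes at -1.38 and -0.19. Mdm2, the p53 ligase, stood at -0.37, Gadd45a at -0.55 and Bax at -0.35. Plk2, a kinase on the list, read 4025 and 5961, a difference of 0.57 in the other direction.

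The BCL-2 family beyond Bbc3 differed little. Of 14 measured members of 20, Bbc3 was the 1 counted (3.55% of all genes were lower), and the median was -0.10. The pore-forming genes Bax and Bak1 both stood at -0.35, and Bok at -0.46. The survival genes Bcl2l1 (BCL-XL) and Mcl1 stood at -0.01 and 0.03. The BH3 gene Bcl2l11 (BIM) was well above background in the withdrawal channel alone, at 37 against 39, so it gives no fold.

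Caspase genes differed little too. Of 21 measured members of 25 on the caspase and death receptor list none was counted, with a median of -0.03. Casp6 stood at -0.76 and Casp9 at -0.54, Apaf1, the apoptosome scaffold, at -0.06 and Xiap at 0.20.

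Amino acid stress genes differed little as a list. On the ATF4 and unfolded protein list 30 of 31 were measured, 21 lay below 0, and 2 (6.67%) were at least 2-fold lower where 3.55% of all genes were, with a median of -0.22. These were Slc7a11 and Ddit4, an inhibitor of mTORC1, which read 1466 and 655, a difference of -1.16, with 2 probes at -1.36 and -0.96. Psat1, of serine synthesis, read 53473 and 28086, a difference of -0.93. Atf4 itself stood at 0.38 with an SD of 0.04 over 10 spots, and the chaperone gene Hspa5 at -0.14.

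Chaperone genes divided by class. The small heat shock protein genes Cryab and Hspb1 read 7345 and 1366, and 343 and 94, with differences of -2.43 and -1.87. Hsp90aa1, Hsph1 and the chaperonin gene Cct5 stood at 0.34, 0.41 and 0.46. Over the 27 measured members of 30 on the proteasome and heat shock list the median was 0.17. Counted were those 2 as lower (3.55% of all genes were) and 0 as higher.

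Lysosome genes lay below 0 almost throughout with small differences. Of 33 measured members of 34, 30 were below 0, with a median of -0.33, and 1 was at least 2-fold lower (3.03%, where 3.55% of all genes were). Psap, prosaposin, read 3818 and 1718, a difference of -1.15. The cathepsin genes Ctsa, Ctsh, Ctsb and Ctsd stood at -0.92, -0.75, -0.59 and -0.57.

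Interferon and antigen presentation genes had a median of -0.41 over 19 of 30, with 3 lower (3.55% of all genes were) and 1 higher (1.06% were). Gbp2, a guanylate-binding protein gene, read 431 and 156, a difference of -1.46. Ifi27 read 11209 and 4817, a difference of -1.22, and the peptide transporter gene Tap2 read 334 and 163, a difference of -1.03. Bst2 (tetherin) read 62 and 173, a difference of 1.48. With normexp Tap2 stood at -0.69 and Bst2 at 0.71.

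Neuronal genes, the output of differentiation, were mixed. Of 22 measured members of 32, 9 lay above 0 and 13 below, 2 were at least 2-fold lower (3.55% of all genes were) and 0 higher, with a median of -0.05. Dcx, doublecortin of migrating neurons, read 148 in the withdrawal channel and 69.3 in the Bcl-2 channel, a difference of -1.10 and -0.52 with normexp. Ncam1 read 1137 and 550, a difference of -1.05 and -0.915 with normexp, so neither gene remained counted there. Tubb3, neuronal tubulin, read 517 and 336, a difference of -0.62.

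Brighter neuronal genes differed in size and sign. Gap43, of the growth cone, read 16708 and 8840, a difference of -0.92, while Elavl4 read 4059 and 4951, a difference of 0.29. Map2, of dendrites, read 10055 and 9127, a difference of -0.14.

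Few markers of neuron subtypes were measured. On the GABA interneuron list 7 of 21 were measured with none counted, and Npy stood at -0.70 with an SD of 0.09 over 9 spots. On the glutamatergic list 5 of 20 were measured, none was counted, and Gria1, a glutamate receptor subunit gene, stood at -0.99 with an SD of 0.15 over 5 spots. Most of the other members were not well above background in both channels, so their differences are not known.

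Progenitor genes were close between the channels. Of 16 measured members of 24, none was counted, with a median of -0.07. The cortical factor genes Pax6 and Emx2 stood at -0.07 and -0.24. Egfr, the receptor of late progenitors, read 25359 and 17855, a difference of -0.51. Vim read 48727 and 64256, a difference of 0.40 with an SD of 0.03 over 9 spots, and Tead2 stood at 0.70.

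Patterning pathways gave few counted members. Notch genes had none among 21 measured of 26, with a median of -0.15; the effectors Hes1 and Hes5 stood at -0.67 and 0.32. The BMP and TGF-beta list had 17 of 30 measured and 2 lower (3.55% of all genes were). Id4, a target that blocks neuronal factors, read 2082 and 853, a difference of -1.29, and Tgfb2 read 131 and 61, a difference of -1.10, which was -0.48 with normexp. Id1 and Id2 stood at -0.31 and -0.20.

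Wnt genes split at the extremes. Of 23 measured members of 34, the secreted modulator gene Dkk3 read 991 and 162, a difference of -2.61, while Lef1, the nuclear effector, read 245 and 528, a difference of 1.11, or 0.84 with normexp. Wnt7a, a ligand of the embryonic cortex, stood at -0.95 and Axin2, a common target, at -0.23. On the IGF list 1 of 11 measured members of 16 was counted (3.55% of all genes were lower). It was the binding protein gene Igfbp3 with 20566 and 8226, a difference of -1.32.

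Axon guidance genes had a median of -0.41 over 21 of 38, and 18 lay below 0. Epha5, an ephrin receptor gene, read 960 and 427, a difference of -1.17 and -0.99 with normexp. It was the 1 counted (3.55% of all genes were lower). Sema3c stood at -0.83, with 2 probes at -0.996 and -0.67, and Epha4 at -0.53, with 2 probes at -0.56 and -0.50. Dcc, the netrin receptor gene, stood at 0.70.

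**Figure D4:**
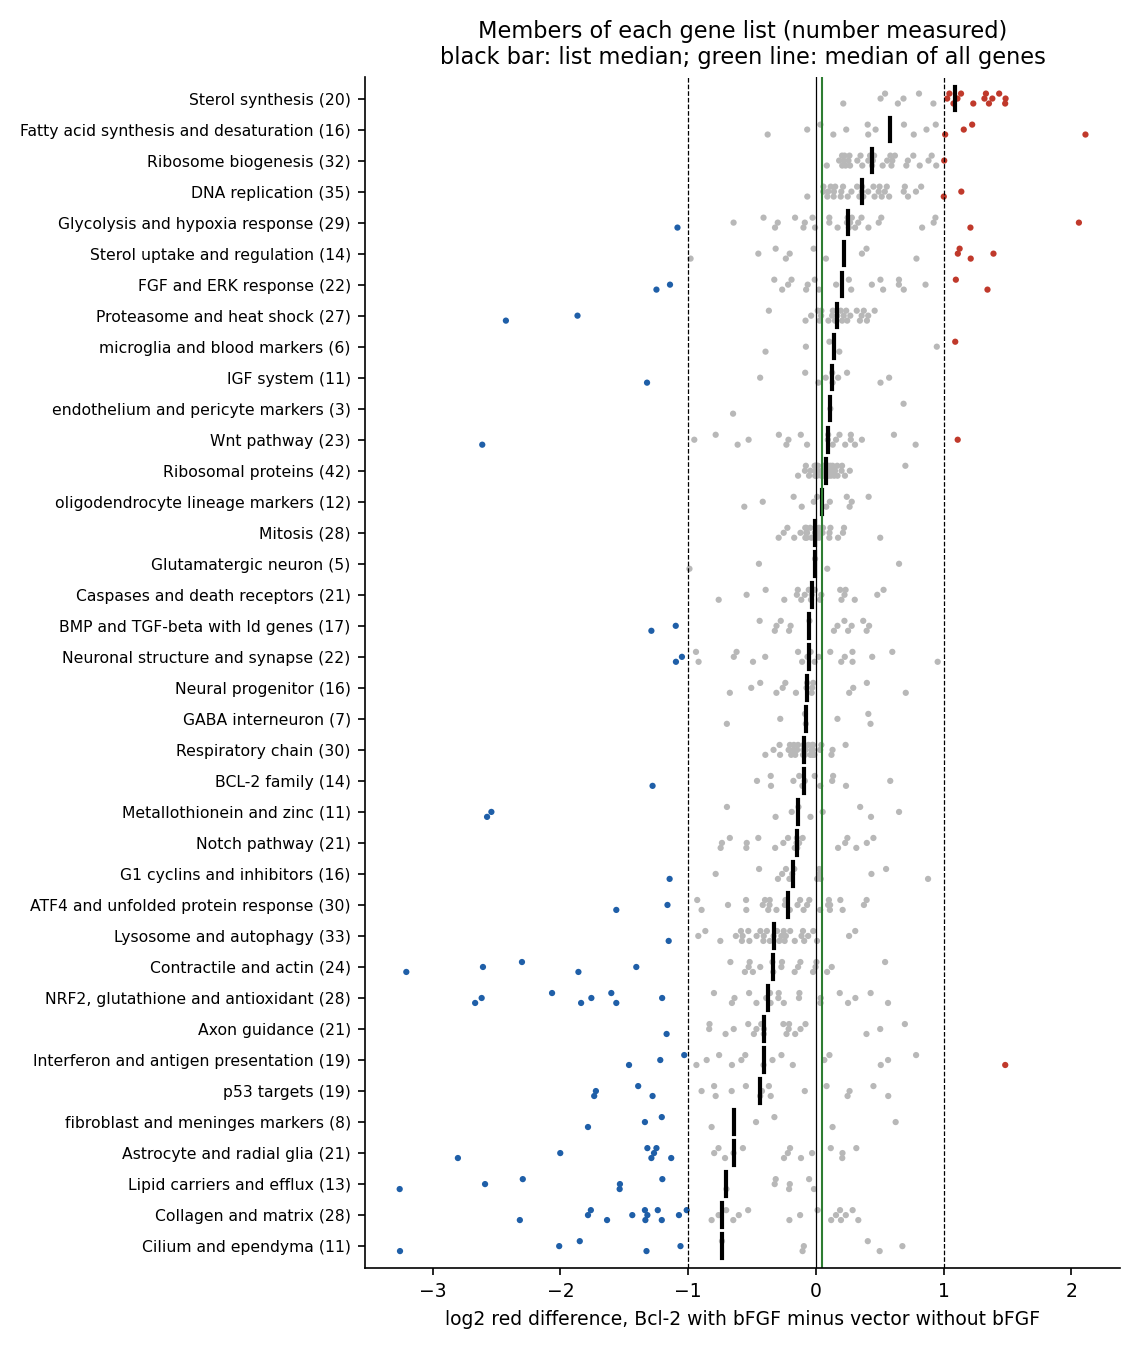
Red difference (log2, Bcl-2 with bFGF minus vector without bFGF) of each measured member of 34 gene lists and 4 marker lists, with points past 2-fold in red and blue, a black bar at each median and a green line at the median of all genes, 0.05. Sterol synthesis stands at the top with a median of 1.09, and collagen and cilium lists at the bottom with medians of -0.73 and -0.74.

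For 12 of the 38 lists, with medians within 0.145 of 0, the side of 0 changed with at least 1 other scaling, filter or probe summary, so they have no direction here. They are mitosis, respiratory chain, BCL-2 family, caspases, neuronal structure, glutamatergic neuron, BMP and TGF-beta, Wnt and IGF, and the oligodendrocyte, microglia and endothelium markers.

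Markers of other cell types were measured in part. Of 17 oligodendrocyte lineage genes 12 were measured and none was counted, with a median of 0.05 and a summed red signal of 132200 in the withdrawal channel and 125700 in the Bcl-2 channel. Mbp, Mog and Myrf were not well above background. Of 17 microglia and blood genes 6 were measured, with summed signals of 5086 and 8280. Much of both sums was the haemoglobin gene Hba-a1, which read 3058.5 and 5895. Cd68 read 442 and 941, a difference of 1.09 and 0.93 with normexp. The microglia genes Tyrobp, P2ry12 and Lyz2 were well above background in the withdrawal channel alone. Ptprc, Itgam and Hbb were not well above background. Of 14 endothelium and pericyte genes 3 were measured, with summed signals of 397.5 and 396, and Pecam1 and Cldn5 were not well above background.

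Most measured fibroblast and meninges markers lay on the same side as the lower contractile and collagen genes. Of 14 genes 8 were measured, 6 below 0 and 2 above. At least 2-fold lower were 3 (3.55% of all genes were), and the summed red signal was 11050 in the withdrawal channel and 4569 in the Bcl-2 channel. The 3 are the collagen genes Col1a1, Col1a2 and Col3a1, which the matrix list holds too. Most of both sums was these 3 genes, with Col1a2 at 6361 and 1847, so the summed difference largely repeats the matrix list. The 2 probes of Col1a1 stood at -1.67 and -0.74. Crabp2, a retinoid-binding protein gene, stood at -0.32 and Twist1 at 0.62. Lum, Pdgfrb, Foxc1 and Ptgds were well above background in the withdrawal channel alone, which by itself gives no fold. Over all genes 832 were in that class, against 43 in the Bcl-2 channel alone. The part of fibroblast or meninges cells in the lower contractile and collagen genes was not tested.

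Some genes were well above background in 1 red channel alone and give a bound in place of a fold. The bound divides the bright signal by the dim one, or by the dimmest signal that still passed the background filter where that was larger. Signals brighter than that dimmest one can also fail the filter, so a bound is a ratio and not a secure minimum. There were 43 such genes in the Bcl-2 channel and 832 in the withdrawal channel. Of 15441 genes with a usable spot, 34 (0.22%) had a bound past 2-fold on the higher side and 176 (1.14%) on the lower side. The highest bounds were 15.9-fold for the olfactory receptor gene Or7a35 and 14.4-fold for the chemokine receptor gene Ccr10. They rest on 15 against 238 and on 23.5 against 338. Tinag, Gpr65, Or1f34 and Pp2d1 followed with 5.15-fold, 5.14-fold, 4.98-fold and 4.64-fold.

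In the other direction Cyp2g1, an olfactory cytochrome P450 gene, had a bound of 11.6-fold, with 151 in the withdrawal channel against 13 in the Bcl-2 channel. Ttr failed the filter in the Bcl-2 channel at 44.3, so 13 lies among signals that can fail and the size of the fold is not secure. The bound was 9.29-fold for P22k15, 9.09-fold for Olfm4, 8.17-fold for Slc5a1 and 8.11-fold for Slc22a3. Some listed genes were in this class, which held 832 genes against 43 in the Bcl-2 channel alone. Their side is set by the class, so they add nothing to the direction of their lists. Ttr, the thyroxine carrier of the choroid plexus, read 285 against 44.3, a bound of 6.44-fold. Ccn2, a matricellular gene of the contractile list, read 137 against 19.4, a bound of 7.06-fold. The death receptor gene Fas, a p53 target, had a bound of 2.62-fold.

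The green channels of the same spots are set beside the red ones, because the labels give them 1 RNA, from vector cells with bFGF. Between them 254 of 9601 genes, 2.65%, differed at least 2-fold. The green difference, written as the withdrawal array minus the array labelled Bcl-2, followed the red difference at r = 0.88 and Spearman rho = 0.84 over 9442 genes, and 84.5% of genes had 1 sign. The points share spots, arrays and probes, and the correlation is across genes, which are not independent replicates. Its SD over genes was 0.40, against 0.47 in red.

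Gene by gene the pattern held for most counted genes. Of the 91 higher genes with a green value, 89 lay above 0 in green and 44 were past 1, with a median of 0.98. Of the 341 lower genes, 336 lay below 0 and 175 were past -1, with a median of -1.01. Apoe read 16017 and 1674 in red, and 705 in green of the withdrawal array and 7942 in green of the other, a green difference of -3.49. Idi1 read 13888 and 4501 in green, a difference of 1.63. The 20 sterol synthesis genes had a green median of 1.30. The labels of the channels are not verified by these data, and what moves the green channels was not tested.

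Some collagen genes departed from that pattern. Of 13 measured collagen genes 6 were at least 2-fold lower in red (3.55% of all genes were) and 5 lay above 0. Among 5331 genes with at least 400 in green on both arrays, 92 were counted as lower in red, and 4 of these had a green difference above -0.5. They were Col3a1 at -0.25, Col6a2 at -0.49, Col1a1 at -0.44 and the splicing factor gene Prpf19 at 0.24, a rule and names chosen after the values were seen. Col1a2 read 6361 and 1847 in red, a difference of -1.78, but 1924 in green of the withdrawal array and 3107 in green of the other, a difference of -0.69. Col5a3 kept the common pattern, at -2.32 in red and -2.13 in green. The collagen and matrix list as a whole had a median of -0.73 in red and -0.25 in green.

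**Figure D5:**
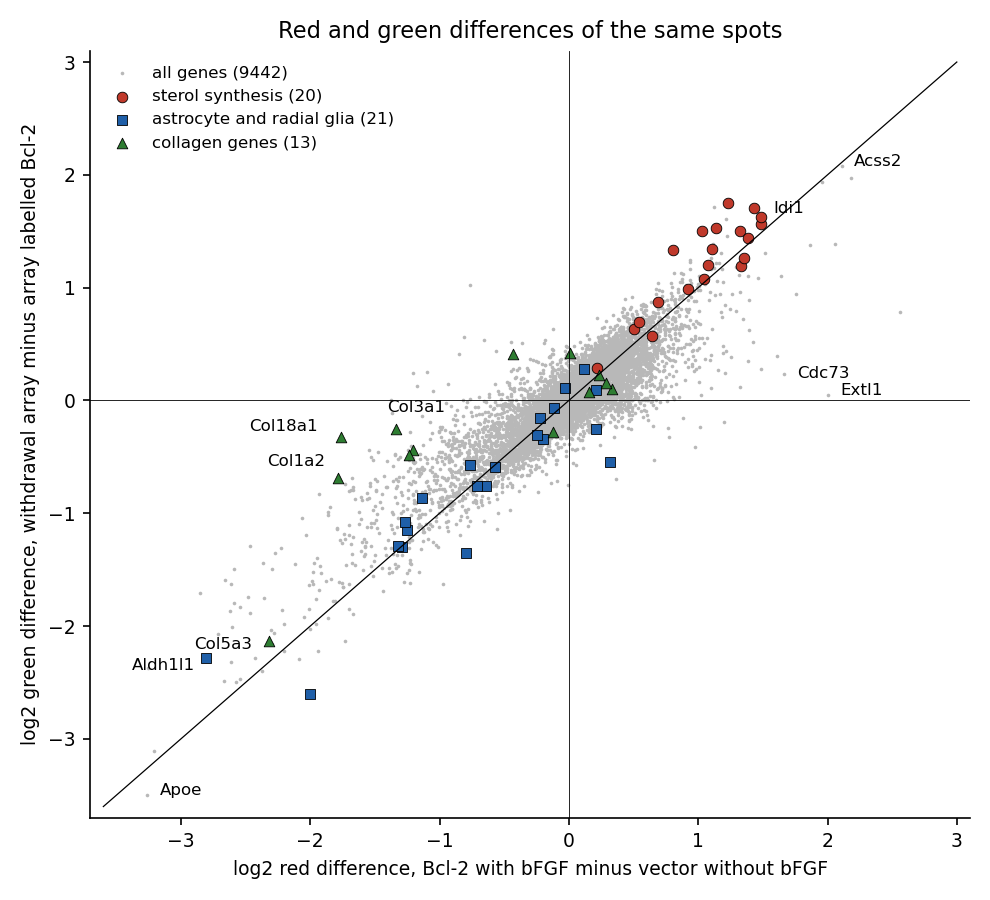
Red difference (x axis, log2, Bcl-2 with bFGF minus vector without bFGF) against the green difference of the same spots (y axis, log2, withdrawal array minus array labelled Bcl-2) for 9442 genes, with the line of equal differences. Sterol synthesis genes lie in the upper right and most astrocyte genes in the lower left, while Col1a2, Col3a1 and Col18a1 lie well above the line.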

How the data were processed

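The members, the gene lists and the rule for named genes were chosen with earlier results of these data known, so no list is independent evidence of its direction. Per the file headers, the deposited scanner files hold spot and local background intensity as medians over pixels, not normalized, and flags of 0 or 1, made with Feature Extraction 11.5.1.1, protocol GE2_1105_Oct12, on array design 028282 with build rn4. The submitters' processing notes name Agilent Feature Extraction 8.5.1.1.

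Background was subtracted from the red median signal, and both red channels were quantile normalized together in Python 3.11.15 (numpy 2.4.6, pandas 2.3.3). Of 42877 gene spots, 556 outlier spots were left out and 0 were saturated. Kept were 27899 spots of 18136 probes that were well above background in both red channels. Accessions without version were matched to RefSeq gene names of GRCr8, which named 60.4% of the 30367 probes. Spots of a probe were averaged on the log2 scale, and a gene took the median over its kept probes. Named were 11 fixed genes, the 15 highest and 15 lowest counted genes, in each list the 4 members furthest from 0 and any member at least 2-fold, and the 6 highest bounds on either side. Some genes that this rule names or the lists hold are not reported here by name and not plotted by name, and stay in the counts. Other list members are given for their role and were named with values seen. Alternatives were normexp with offset 50 in limma 3.58.1 (R 4.3.3), other scalings, filters, probe summaries and fold limits. The analysis steps were tested on simulated data.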

Additional observations from a re-analysis of the deposited data

How the results depend on the processing

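Counts of 104 genes higher and 348 lower became 44 and 190 with normexp, 62 and 231 without the dimmest 25% of genes, and 595 and 835 with a 1.5-fold limit. Median scaling gave 196 higher, and keeping genes well above background in at least 1 red channel gave 554 lower; 98 and 338 of the main genes were among these. The share of counted genes that were higher was 23.0%, against 36.1% with median scaling, 41.6% with the 1.5-fold limit and 14.6% with loess. Quantile normalization over kept spots alone, an alternative chosen after seeing the data, gave 92 and 362. Of 112 named genes past 2-fold, 32 fell under it with normexp, 10 of them with another of the 11 alternatives too, and 0 changed sign. Medians of 12 of 38 lists, all within 0.145 of 0, changed sign in at least 1 alternative, among them the IGF system (-0.0073 with loess), microglia and blood (-0.0826 with loess) and endothelium and pericyte (-0.0769 with loess and -0.2905 with genes above background in 1 channel). The cause was not tested. No paired analysis was possible because each group has 1 array. Dim genes limit the comparison: folds near background shrink with any added offset.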

Other observations

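Gene families were read after the values were seen, and some of their members are on the lists above, such as S100b, Timp2, Timp3, Gsta1, Gstm1 and Slc7a11. Over all genes 3.55% were counted as lower and 1.06% as higher. All 5 measured granins and secretogranins, cargo of dense-core vesicles, were at least 2-fold lower in the Bcl-2 red channel, among them Vgf with 470 and 181 (-1.37) and Chgb with 353 and 141 (-1.33). Of 7 annexins, which bind membranes with calcium, all lay below 0 and 3 were counted, with Anxa2 at 2120 and 542 (-1.97). Of 8 S100 genes 4 were counted as lower, with S100a6 at 501 and 123 (-2.03), and of 4 galectin genes 2, with Lgals3 at 3379 and 869 (-1.96). Of 4 tissue inhibitors of metalloproteinases 3 were lower, while Timp1 read 8546 and 9286 (0.12).

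Other families were mostly under 2-fold. All 7 cytosolic chaperonin genes lay above 0 with a median of 0.34. Of 14 glutathione S-transferase genes 12 lay below 0 and 6 were counted as lower (3.55% of all genes were). The 78 olfactory and vomeronasal receptor genes, with dim signals, had a median of 0.18, and 61 lay above 0. All genes of the dimmest signal bin had a median of 0.13. Of 9 measured genes named Slc7a, mostly amino acid transporters, 3 were counted as lower (3.55% of all genes were). Slc7a3, an arginine transporter gene, read 7054 and 2313 (-1.61), while Slc7a6 stood at 0.82.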
